A study of Saccharomyces cerevisiae with 2 samples.

Results

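The response of budding yeast, Saccharomyces cerevisiae, to the mating pheromone alpha factor was measured in cells that lack MSG5, a gene for a phosphatase of mitogen-activated protein kinases (MAPKs). Every feature with a value in that comparison was taken except 2 control features, which gave 4877 of the 6207 gene features on the array (78.6%). The treated RNA came from an msg5 deletion culture that had grown for 4 h in rich medium at 24 °C and then for 90 min with alpha factor, at a concentration that the labels give as 50 mM. The reference RNA came from the same deletion strain, grown for the same times without the pheromone. Both cultures lacked MSG5, so the comparison holds no wild-type cells and does not show what the deletion adds to the response. The other sample of the series set the deletion against wild type without pheromone, after 2 h 30 min and then 2 h of growth, and the labels name BY4741, a laboratory strain, for its wild-type RNA.

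Alpha factor is secreted by alpha cells and binds a G-protein-coupled receptor on a cells. The signal passes through a scaffolded chain of kinases to the MAPKs Fus3 and Kss1, and the transcription factor Ste12 then induces genes of adhesion, cell fusion and nuclear fusion. The cells stop in G1 and grow a projection towards the partner. Msg5 removes phosphate from Fus3 and also from Slt2, the kinase at the end of the pathway that guards the cell wall.

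Each value was a log ratio that the authors condensed from 4 two-colour arrays of 2 biological samples with swapped dyes. It was taken as a log2 ratio of treated over untreated cells. There was 1 value per feature, so no difference was tested against replicates, and the small number of arrays limits the precision. Words such as higher and lower below refer to the sign and size of that single value. Its base and its direction are not stated in the labels. A base of 2 turned every value of the other sample into a multiple of 0.001. In this sample 7.97% did so, against 7.52% by chance. With multiples of 0.0001, 79.1% of its 705 values below -0.3 did so, against 54.3% by chance. Folds therefore hold only if the base is 2. The direction was taken from the channel layout, which is the same in both samples, and from MSG5 at -2.51 when the deletion was set over wild type. With the sign turned, every higher value below would be lower.

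Features of the same gene were averaged, which gave 4597 genes with a name in the R64 assembly. Their median log2 ratio was -0.05, the quartiles were -0.21 and 0.10, and 81% were within 1.25-fold of no difference. Of all genes 59.4% lay below 0 and 40.6% above it. Counts of list members below or above 0 are to be read against these shares. At 2-fold or more, 17 genes were higher (0.37% of the genes) and 12 were lower (0.261%). At 1.5-fold the balance was the other way, with 67 genes higher (1.46%) and 145 lower (3.15%). Where a gene had several features, these gave a view of error: the spread within 24 such genes had a median of 0.29 and a maximum of 0.68, at PRM7. The control features stood at 0.12 (Arabidopsis) and 0.22 (3XSSC).

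**Figure D1:**
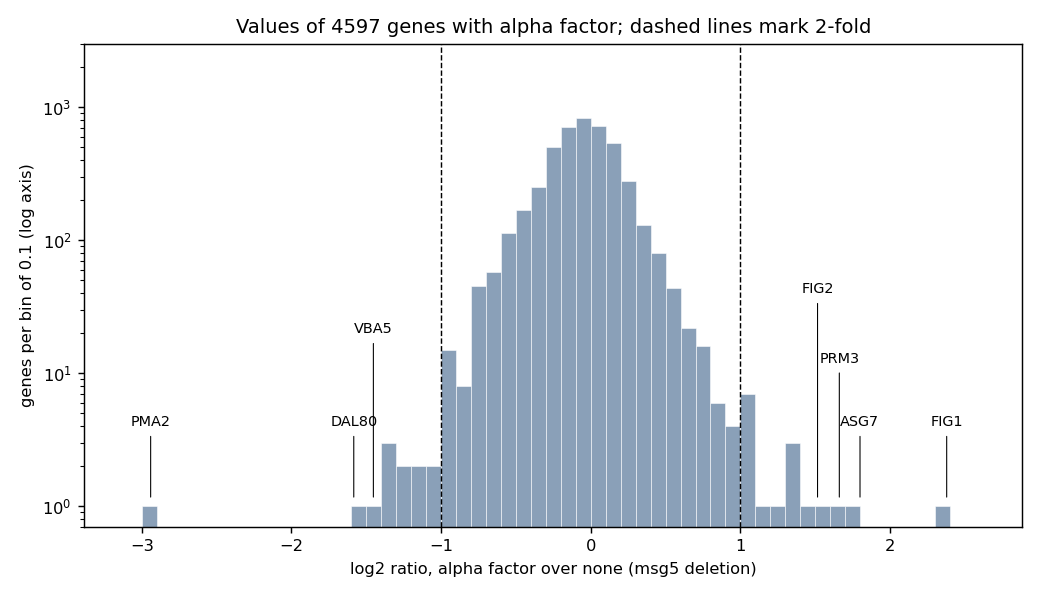
Histogram of the log2 ratio of treated over untreated msg5 deletion cells for 4597 genes, in bins of 0.1, with the number of genes on a log axis and dashed lines at 2-fold. Most genes lie near the median of -0.05, 17 lie at or beyond 2-fold on the high side, led by FIG1 at 2.38, and 12 on the low side, with PMA2 at -2.94.

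Of the 17 genes at least 2-fold higher, 9 belonged to a list of 40 pheromone-induced targets and 8 did not. Of that list 35 genes had a value, with a median of 0.57 against -0.05 for all genes. By the 1.5-fold rule 16 were higher and 1 was lower, against 1.46% and 3.15% of all genes. The members were picked from textbook knowledge with these results known, so their direction is a description. KAR3, KAR5, AFR1, ERG24 and SCW10 had no value here.

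On the ligand side, a cells make a-factor, a lipid-modified peptide, from MFA1 and MFA2. MFA1 was 2.53-fold higher (log2 ratio 1.34) and MFA2 had a value of 0.74. The genes that process and export a-factor did not share this shift. RAM1 and RAM2, of the farnesyltransferase, stood at 0.00 and -0.06, the proteases RCE1 and STE24 at 0.18 and -0.32, and the methyltransferase STE14 at 0.20. The exporter STE6 stood at -0.17. AXL1, the protease of the last maturation step, had a value of -0.02, and its relative STE23 was the lowest of the group at -0.92.

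At the cell surface and the G protein, all 6 measured genes lay above 0, against 40.6% of all genes. None was 1.5-fold higher, against 1.46% of all genes. GPA1, highest and just short of 1.5-fold, the alpha subunit that holds the signal off at rest, gave 0.58. BAR1, a protease that degrades alpha factor, stood at 0.55, and SST2, which speeds the return of the G protein to its inactive form, at 0.36. These 3 genes act against the signal. The receptor gene STE2 stood at 0.25, and the beta and gamma subunits STE4 and STE18 at 0.06 and 0.23.

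Further down the pathway the values lay on both sides of 0. FUS3, the mating MAPK, had a value of 0.42, whereas KSS1, the MAPK shared with filamentous growth, stood at -0.31. The scaffold gene STE5 was the lowest component at -0.63. The kinase gene STE7 stood at -0.22 and the adaptor gene STE50 at -0.01. STE12 itself had a value of -0.12, with its repressors DIG1 at -0.44 and DIG2 at 0.11 and its partner in filamentous growth, TEC1, at 0.08. FAR1, which links the signal to cell cycle arrest and polarity, stood at 0.15. KAR4, a transcription factor that acts with Ste12 but is not in the list of components, stood at 0.88. AKR1 (-0.32), BEM1 (-0.17), CDC42 (-0.04) and CDC24 (0.02), which serve membrane traffic of the pathway and polarity, lay near or below the median. Across the 20 measured components the median was 0.04. At 1.5-fold 0 genes were higher and 1 was lower, against 1.46% and 3.15% of all genes. The targets were picked with these results known and share STE2, GPA1, FUS3 and others with the components, so the lists are no independent contrast. The kinase genes STE20 and STE11 had no value.

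The 3 adhesion genes lay close together. FIG2, a mating adhesin of the cell wall, was 2.86-fold higher, AGA1, the anchor subunit of a-agglutinin, 2.61-fold, and AGA2, its binding subunit, 2.56-fold. Their log2 ratios spanned only 1.35 to 1.52. The cell fusion genes were uneven. FIG1, a membrane protein needed for calcium entry and fusion, was 5.20-fold higher, the largest value of all 4597 genes. FUS1, a membrane protein of the fusion zone, had a value of 0.57, RVS161, a membrane-bending partner of Fus2, 0.42, PRM1, a protein of plasma membrane fusion, 0.17, and FUS2 itself -0.18. FIG1 stood far apart from the other 4.

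Nuclear fusion genes were divided as well. PRM3, a nuclear envelope protein needed for the fusion of nuclei, was 3.16-fold higher. PRM2 lay on the other side at -0.73, and KAR1 of the spindle pole body, the chaperone gene KAR2 and its partner JEM1 stood at -0.47, -0.48 and -0.23. The microtubule genes CIK1, KAR9 and BIK1 had values of -0.02, 0.12 and 0.21. MPS3 of the nuclear envelope stood at 0.06, and the translocation genes SEC63, SEC66 and SEC72 at -0.15, 0.13 and 0.09. Over the 13 measured members 2 were at least 1.5-fold higher, PRM3 and KAR4, against 1.46% of all genes. Lower by the same rule was 1, PRM2, against 3.15%.

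All 10 PRM genes, named as pheromone-regulated membrane proteins, had a value. At 1.5-fold 8 of them were higher and 1, PRM2, was lower, against 1.46% and 3.15% of all genes. PRM6 (1.11) and PRM5 (1.02) passed 2-fold beside PRM3. PRM9 stood at 0.89, PRM8 at 0.79, PRM4 at 0.77, PRM10 at 0.65 and PRM7 at 0.61. PRM7 is the average of 2 features at 0.27 and 0.95, so its place in this order is loose. ASG7, an a-specific gene that dampens the signal after mating, was 3.48-fold higher, second to FIG1.

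The same 9 targets were also high when the deletion was set over wild type without pheromone. There FIG1 stood at 3.33, FIG2 at 2.82, AGA1 at 2.02, PRM6 at 1.96, ASG7 at 1.87, PRM3 at 1.504, PRM5 at 1.501, AGA2 at 1.26 and MFA1 at 1.03. FIG1, FIG2, AGA1, PRM5, PRM6 and ASG7 had larger values there than with alpha factor, and PRM3, AGA2 and MFA1 smaller ones. The times of growth differed between the 2 comparisons, and the difference between them was not tested. The median of the target list was 0.43 there, over the 37 members measured.

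**Figure D2:**
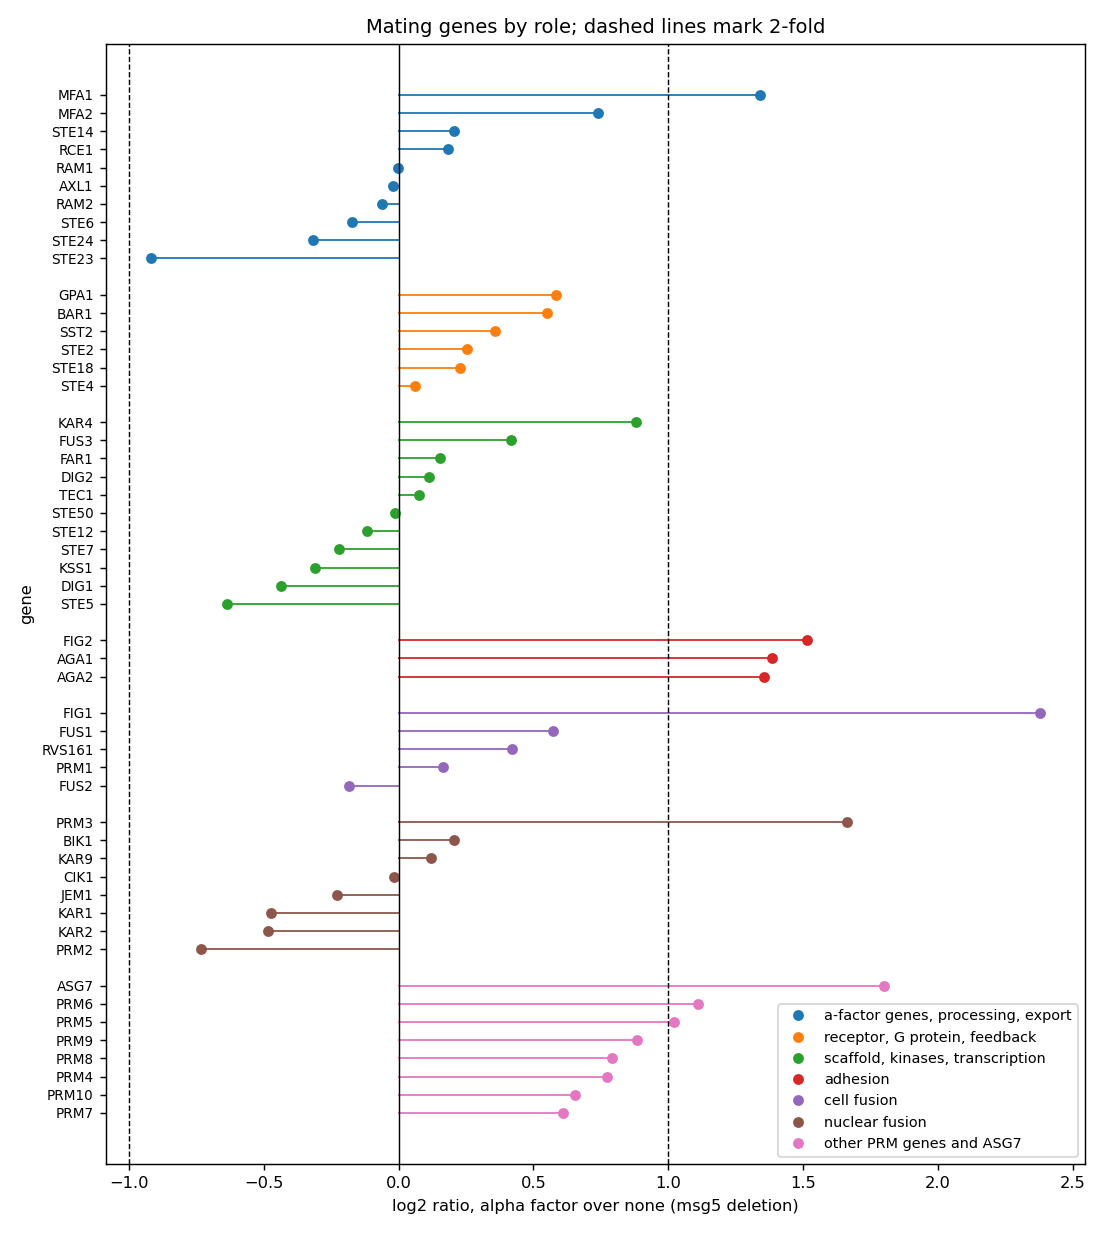
Log2 ratio of treated over untreated msg5 deletion cells for mating genes, grouped by role and ordered by value, with dashed lines at 2-fold. Adhesion genes lie together between 1.35 and 1.52, cell fusion genes spread from FUS2 at -0.18 to FIG1 at 2.38, and most signalling genes lie within 0.6 of 0.

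Among the 7 markers of a cells, 4 were at least 1.5-fold higher, against 1.46% of all genes, and the median was 0.74. All 7 are also in the list of pheromone-induced targets, so these are the same values seen again. The alpha-cell markers SAG1, of alpha-agglutinin, and MF(ALPHA)2, an alpha-factor gene, had values of 0.34 and 0.37, and STE3 and MF(ALPHA)1 had none. Ratios give no level, so whether such transcripts were present could not be read from them. The meiotic markers DMC1 and IME1 stood at 0.58 and -0.40.

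The 6 MAPK genes ranged from KSS1 at -0.31 to SLT2 at 0.48, with HOG1 of the osmotic response at -0.01, SMK1 of sporulation at -0.02 and KDX1, a relative of SLT2, at 0.18. The genes for other phosphatases of MAPKs did not stand out. PTP2 and PTP3, tyrosine phosphatases, had values of -0.25 and 0.10, and SDP1, the closest relative of MSG5, of -0.03. Among the PTC genes the range ran from PTC2 at -0.48 to PTC1 at 0.16, with PTC3 at 0.06 and PTC4 at 0.14. PTP1, PPS1 and YVH1 stood at 0.04, 0.02 and -0.05. MSG5 read -0.09, which says nothing of the gene, since neither RNA contained it.

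Outside the mating list, 8 genes were at least 2-fold higher. YGR018C, a gene without a symbol, stood at 1.42 and HFA1, the mitochondrial acetyl-CoA carboxylase, at 1.23, whereas its cytosolic counterpart ACC1 stood at 0.18. PAU20, of a subtelomeric family of cell wall proteins, had a value of 1.08, CSE2, a subunit of the Mediator complex, 1.07, and MLO1 1.06. DGR2 stood at 1.04, AAD15, of a family related to aryl-alcohol dehydrogenases, at 1.01, and TAD1, a transfer RNA deaminase, at 1.00. These lie close to the threshold: just outside it were PAU16 and HUR1 at 0.98 and 0.97. CSE2, MLO1, AAD15 and PAU20 were just below 2-fold (0.93 to 0.998) once the median of genes of similar length was taken off. In the comparison of the deletion with wild type, the values of these 8 genes ran from -0.61 at TAD1 to 0.54 at HFA1.

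The 12 genes at least 2-fold lower held no pheromone target. PMA2, for a minor plasma membrane proton pump, was 7.68-fold lower (-2.94), more than 1.3 beyond any other gene. Its major counterpart PMA1 stood at -0.95. MRH1 and YRO2, membrane proteins of the HSP30 family, both stood at -0.92, whereas HSP30 itself stood at -0.02. Of the small membrane proteins in this group PMP2 had a value of 0.87, PMP1 of -0.06 and PMP3 of 0.10. Of the 8 genes of this group 4 were at least 1.5-fold lower and 1 was higher, against 3.15% and 1.46% of all genes. The median was -0.49, and -0.06 without PMA2.

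Among the other low genes, NBA1, a protein of the bud neck, stood at -1.31, MSS116, a mitochondrial RNA helicase, at -1.23, and YGP1, a secreted glycoprotein made on nutrient limitation, at -1.11. ADE17, an enzyme of purine synthesis, stood at -1.11, FAT1, of fatty acid uptake, at -1.03, and CKI1, choline kinase, was 2.01-fold lower. ADE17, FAT1 and CKI1 came short of 2-fold after the correction for length (-0.99, -0.91 and -0.88). GTR1 and CSE1 lay just outside at -0.997 and -0.99. In the deletion compared with wild type the values of these 12 genes ran from -0.20 at CKI1 to 0.79 at CAF4.

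The remaining low genes shared a chromosome arm. DAL80, a repressor of nitrogen catabolic genes, stood at -1.58, VBA5, a transporter, at -1.45, and DYN1, for the heavy chain of dynein, at -1.39. CAF4, of mitochondrial fission, stood at -1.36 and YSR3, a phosphatase of sphingoid bases, at -1.28. By their systematic names all 5 lie on the right arm of chromosome XI, which held 81 of the genes measured. The 4516 measured genes of the other 31 arms held 7 such genes, and no other arm held more than 1. At 1.5-fold lower the arm held 10 genes, or 12.3% of its genes against 2.99% elsewhere, where the highest share of an arm was 5.88%. GAP1, the general amino acid permease, stood at -0.98 and SKG1, a protein of cell wall growth, at -0.95.

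The arm as a whole was not shifted. Its median was -0.04, and its standard deviation of 0.43 was the largest of the 32 arms, the others lying between 0.19 and 0.36. No gene of the arm was 1.5-fold higher. The low genes lay in several places along it, and some lay close together. In feature order DAL80, CAF4 and GAP1 were at 34, 36 and 39, and SKG1, VBA5 and GEX2 (-0.67) at 100, 105 and 106. YSR3 and DYN1 are neighbours, at 53 and 54, and YKR018C (-0.78) and ALY1 (-0.67) were at 18 and 21. Genes near 0 lay beside some of them. YKR032W, the nearest measured gene before DAL80, stood at 0.09, SPC34 after CAF4 at 0.29 and RHO4 after DYN1 at -0.09. Without pheromone the same 5 genes had values of -0.01 for DAL80, 0.05 for VBA5, 0.25 for DYN1, 0.79 for CAF4 and -0.08 for YSR3 in the deletion over wild type. The arm was singled out after its values were seen, and its place on the arrays was not tested.

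**Figure D3:**
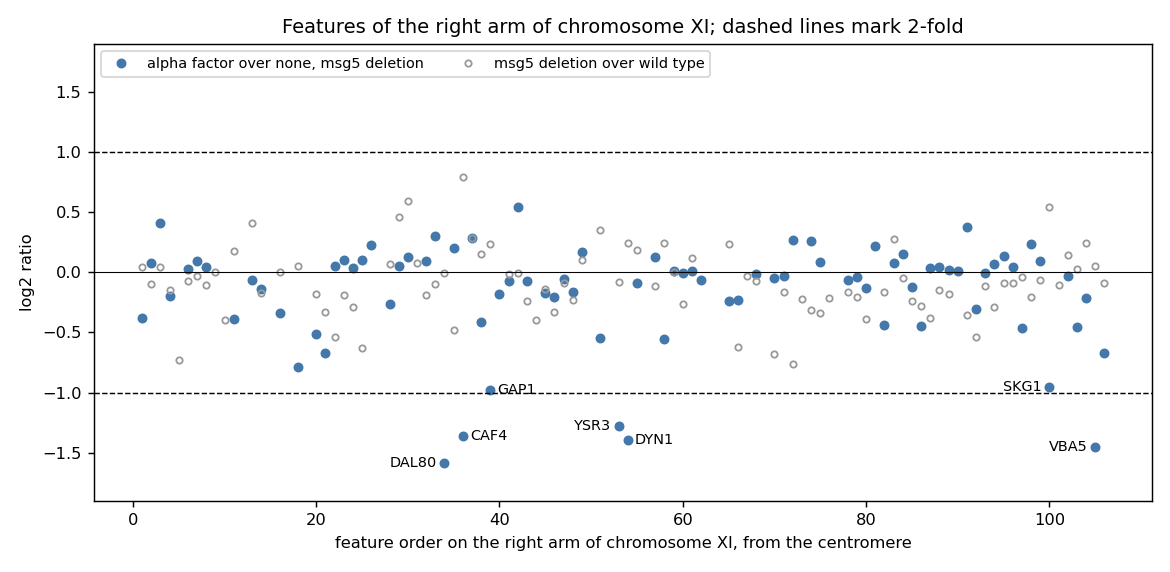
Log2 ratios of the features on the right arm of chromosome XI in feature order from the centromere, with alpha factor (filled) and for the deletion over wild type (open), and dashed lines at 2-fold. With alpha factor DAL80, CAF4, YSR3, DYN1 and VBA5 lie below -1 among neighbours near 0, whereas their values for the deletion lie between -0.08 and 0.79.

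Histone genes were low as a group. All 10 had values below 0, the median was -0.43, and 3 were at least 1.5-fold lower against 3.15% of all genes. The histone H3 genes HHT1 and HHT2 stood at -0.85 and -0.73, and the H4 genes HHF1 and HHF2 at -0.42 and -0.65. HTA2 and HTB2, for H2A and H2B, both stood at -0.43, but their copies HTA1 and HTB1 were the highest members at -0.04 and -0.14. Copies of a histone gene differed by up to 0.39, and shared sequence could let their transcripts bind each other's spots. HHO1, the linker histone, had a value of -0.52 and HTZ1, a variant H2A, of -0.41.

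Mitotic genes leaned the same way. Of 20 measured G2/M genes 16 lay below 0, against 59.4% of all genes, with a median of -0.22. At least 1.5-fold lower were 4, against 3.15% of all genes, and 0 were higher. HST3, a histone deacetylase, stood at -0.80, ALK1, a haspin-related kinase, at -0.70, CLB2, the main mitotic cyclin, at -0.70, and BUD8, a bud site marker, at -0.62. The other B-type cyclins were spread, with CLB1 at -0.40, CLB3 at -0.21 and CLB4 at 0.03. BUD3, a bud neck protein, and NDD1, an activator of G2/M genes, were the highest members at 0.04 and 0.03. Several regulators of this phase, among them CDC5, DBF2 and MYO1, had no value.

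Genes of the M/G1 boundary and of daughter cell separation had a median of -0.26, with 15 of 19 below 0. At 1.5-fold, where 3.15% of all genes were lower, 4 were lower: EGT2, of cell separation (-0.89), SIC1, an inhibitor of cyclin-dependent kinase (-0.74), DSE1, a daughter cell protein (-0.64), and PCL9, a cyclin of the Pho85 kinase (-0.60). DSE2 (0.23) and PIR3 (0.20), both of the cell wall, were the highest. The shift was smaller in these genes and in the G2/M genes once length was taken into account (-0.17 and -0.14).

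The median of 13 G1 cyclins and G1/S regulators was 0.02. At 1.5-fold 3 of them were lower and 1, PCL2, was higher, against 3.15% and 1.46% of all genes. PCL2 (0.63) and BCK2 (0.41), an activator of G1 cyclin genes, were highest, and SIC1 and MBP1, the DNA-binding part of the MBF factor, lowest at -0.74 and -0.61, followed by PCL9 at -0.60; SIC1 and PCL9 also count among the M/G1 genes. Replication and cohesion genes had a median of -0.04 over 37 members. The cohesin genes SMC3 and IRR1 were the highest at 0.70 and 0.46, and CTF18 (-0.71), of a clamp loader, and RAD27 (-0.28), the flap endonuclease, the lowest. Of 12 origin licensing genes 0 reached 1.5-fold, against 1.46% of all genes higher and 3.15% lower, so in so short a list this says little. Their range ran from ORC5 at -0.41 and CDC6 at -0.39 to ORC1 at 0.15 and ORC4 at 0.36.

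Structural genes of division held some low members. The beta-tubulin gene TUB2 stood at -0.84 and the main alpha-tubulin gene TUB1 at -0.62 in a list with a median of -0.14 (-0.02 after the length correction), whereas the spindle pole genes SPC110 and MPS2 stood at 0.34 and 0.24. The 5 septins had a median of -0.29, and of -0.14 without CDC3. CDC3 had a value of -0.65 and CDC12 of -0.31, with SHS1 and CDC10 at 0.00. Motor genes had a median of -0.02. Apart from DYN1, whose arm is described above, the kinesin gene KIP3 was lowest at -0.51, and PAC1 and CIN8 were highest at 0.44 and 0.31. The anaphase promoting complex had a median of 0.12 over 9 of its 16 genes, CDC27 at 0.73 and CDC26 at 0.52, and APC2 and the activator CDC20 at -0.25 and -0.16.

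**Figure D4:**
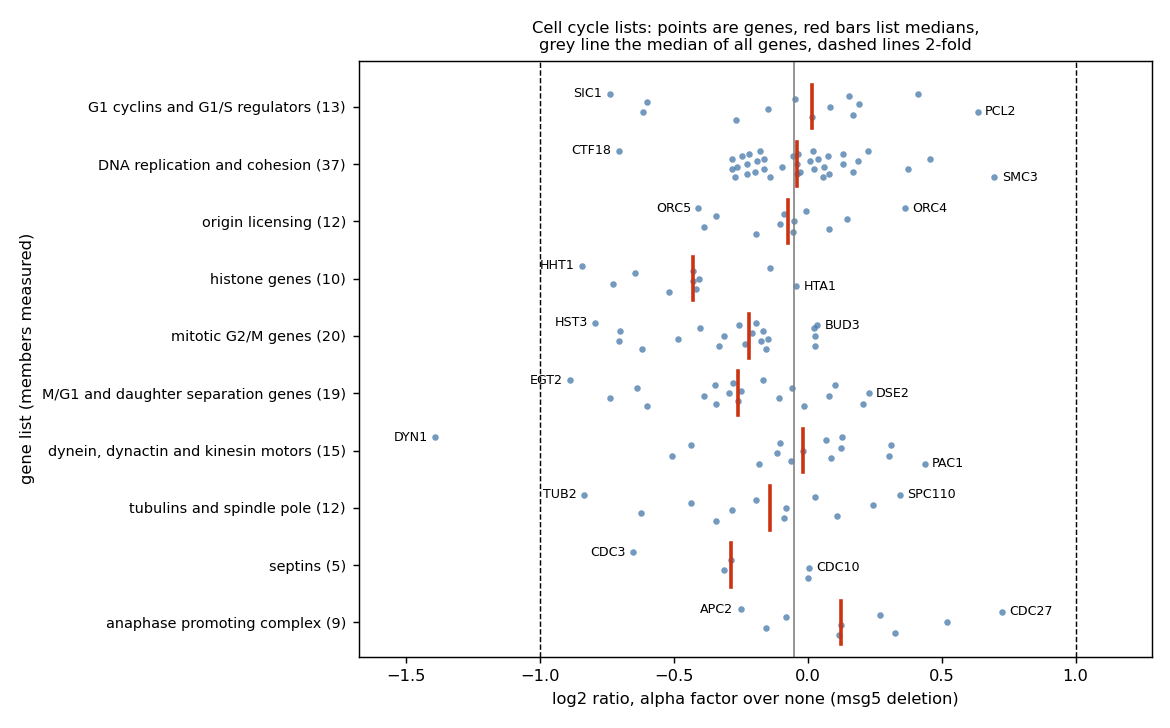
Log2 ratios with alpha factor for the genes of 10 cell cycle lists (points), with list medians in red, the median of all genes in grey and dashed lines at 2-fold. Histone, G2/M and M/G1 lists have medians of -0.43, -0.22 and -0.26, and G1 and replication lists have medians near 0.

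Genes of the mating projection did not move as a group. The median of 20 polarity genes was -0.06, with BUD8 (-0.62) and RGA1 (-0.58), a regulator of Cdc42, lowest and GIC2 (0.26), a partner of Cdc42, and BOI1 (0.15) highest. Actin patch genes had a median of -0.15 over 19 members. Their lowest were VRP1 at -0.58 and actin itself, ACT1, at -0.40, and their highest ARC15 at 0.22 and SLA2 at 0.13.

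Cell wall integrity components had a median of 0.02, and 0 of 16 reached 1.5-fold. Of all genes 1.46% were higher and 3.15% lower by that rule, so 0 in so short a list says little. Close relatives lay on opposite sides: of the redundant kinases, MKK2 stood at 0.47 and MKK1 at -0.56. SLT2 was the highest, followed by MKK2 and LRG1, a regulator of Rho1, at the same value of 0.47, and SAC7 (-0.57), also a regulator of Rho1, and the sensor WSC2 (-0.56) the lowest. Of 27 output genes 18 lay above 0, against 40.6% of all genes, with a median of 0.17. PRM5 was the highest and CRH1, of chitin crosslinking, next at 0.55, whereas YPS1, a yapsin protease, stood at -0.95 and PST1, a wall protein, at -0.58. The 5 yapsins had a median of -0.18 (-0.06 after the length correction), with YPS3 at -0.29, YPS7 at -0.17 and YPS6 at 0.00. Of 14 chitin genes 9 lay above 0, with a median of 0.11, with CRH1 and PCM1 (0.41) highest and CHS6 (-0.43) and SKT5 (-0.17) lowest. Glucan genes had a median of -0.06, from GAS3 (-0.70) and SMI1 (-0.45) to SKN1 (0.20) and GSC2 (0.31). Of 20 wall mannoproteins, with a median of 0.00, TIP1 was the highest at 0.74 and CWP1 next at 0.35, and PST1 and PIR1 (-0.25) were lowest.

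Among 16 calcium genes FIG1 and CRZ1 (0.65), the transcription factor switched on by calcineurin, were at least 1.5-fold higher, against 1.46% of all genes. By the same rule 0 were lower, against 3.15%. The calcineurin gene CNA1 stood at -0.56 and its regulator RCN2 at -0.37. In the osmotic pathway HKR1, a mucin-like sensor, was the exception at 0.71 over a median of -0.05, with YPD1 at 0.14 and FPS1, the glycerol channel, and SHO1, a sensor, lowest at -0.46 and -0.21. Filamentous growth genes had a median of -0.18 (-0.08 after the length correction) and a mean of -0.04. TIP1 and NFG1 (0.46) were highest and PHD1 (-0.51) and OPY2 (-0.49) lowest.

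The general stress list had a median of -0.29 (-0.20 after the length correction), with 18 of 26 below 0 against 59.4% of all genes. Its lowest were YGP1 and YRO2, and its highest DDR2 (0.51) and GSY2 (0.20), of glycogen synthesis. Trehalose and glycogen genes had a median of -0.18 (-0.06 after the length correction and -0.10 without GLG1), from GLG1 (-0.55, on the arm described above) and TSL1 (-0.42) to NTH1 (0.20) and GLC3 (0.41). Chaperones had a median of -0.10 (0.0077 after the length correction), with KAR2 and SSE1 (-0.47) lowest and AHA1 (0.47) and HSP78 (0.36) highest.

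Glycolysis and fermentation genes lay below 0 in 23 of 26 cases, with a median of -0.19 (-0.13 after the length correction). GLK1, glucokinase, stood at -0.66 and PGI1, phosphoglucose isomerase, at -0.59, whereas TPI1 and TDH3 were highest at 0.16 and 0.14. The tricarboxylic acid cycle (-0.09), respiratory chain (0.03) and pentose phosphate genes (-0.06) had medians nearer to that of all genes. In the respiratory list HAP4, an activator of respiration genes, stood at -0.72, QCR2 at -0.68, ATP14 at 0.43 and SDH4 at 0.56. SDH1 and MDH2 were the lowest of the cycle genes at -0.50 and -0.49, and KGD1 was second to SDH4 at 0.29. In the pentose phosphate list TKL1 and GND1 were lowest at -0.38 and -0.25 and RKI1 and RPE1 highest at 0.18 and 0.09. Sterol genes lay below 0 in 21 of 25 cases, with ERG5 at -0.67 and ERG13 at -0.53, but UPC2, their activator, at 0.24 and HMG2 at 0.31. Methionine and sulfur genes lay below 0 in 18 of 21, with MET6 at -0.67 and SAM1 at -0.57, and MET13 and CYS3 highest at 0.19 and 0.17. Fatty acid and sphingolipid genes had a median of -0.20 (-0.10 after the length correction). They ran from YSR3 and the desaturase OLE1 (-0.64) to ACC1 and HFA1.

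Of 54 amino acid genes 39 lay below 0, and 32 below the median of all genes. Their median was -0.14 (-0.04 after the length correction), with ASN2 at -0.72 and ILV5 at -0.51. Their activator GCN4 was the highest member at 0.67, followed by ARO1 at 0.23. Nitrogen genes had a median of -0.09. Of 17 measured members 4 were at least 1.5-fold lower, against 3.15% of all genes. DAL80, VBA5 and GAP1 of these lie on the right arm of chromosome XI, and URE2 (-0.65) does not. GAT1, an activator of the same genes, was highest at 0.80, with DAL81 at 0.43. Iron genes had a median of -0.16 (-0.07 after the length correction) and phosphate genes of -0.17 (-0.10). Hexose transport genes had a median of -0.08 (0.04 after that correction) and arginine genes of -0.18 (-0.07). Among the 65 measured members of these lists 1 was past 1.5-fold, the transporter HXT6 at -0.74. Of all genes 3.15% were lower and 1.46% higher by that rule. Of the glucose genes SNF3, a sensor, was highest at 0.54, followed by HXT14 at 0.23, and STD1 stood at -0.36. The iron genes ran from FET4 (-0.55) and FIT3 (-0.50) to SIT1 (0.16) and ATX1 (0.22). The phosphate genes ran from PHO8 (-0.49) and PHO11 (-0.45) to PHO2 (0.27) and PHM8 (0.50). Of the arginine genes ARG8 stood at -0.51 and ARG4 was highest at 0.45.

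Cytosolic ribosomal proteins lay slightly and widely above 0. Of 53 genes of the small subunit 46 were above 0, with a median of 0.10, and of 79 of the large subunit 55, with a median of 0.13. Of all genes 40.6% were above 0. None of these ribosomal genes reached 1.5-fold, against 1.46% of all genes higher and 3.15% lower. Copies of a ribosomal protein gene differed by a median of 0.15 over 55 pairs and by at most 0.50 (RPL26A 0.34, RPL26B -0.16). RPS8A (-0.29), RPS0A (-0.25), RPL43B (-0.33) and RPL25 (-0.31) were the lowest of their subunits, and RPS29A (0.36), RPS2 (0.34), RPL42B (0.43) and RPL34B (0.42) the highest. Mitochondrial ribosomal proteins (0.00), small subunit processome genes (-0.10), 60S assembly factors (-0.03), RNA polymerase II (0.03) and the proteasome (0.00) had medians within 0.1 of that of all genes. Low genes of these and related lists were NOP4 (-0.97) of 60S assembly, the polymerase I subunit RPA135 (-0.85), RIO1 (-0.71), the mitochondrial MRPS28 (-0.67) and UTP8 (-0.63). The genes EFT1 and EFT2, which encode the same elongation factor, stood at -0.57 and -0.53. The highest members were UTP20 (0.41) and KRR1 (0.38) of the processome, REI1 (0.49) and RLP24 (0.30) of 60S assembly, MRPL50 and MRP1 (both 0.53) of the mitochondrial ribosome, RPC11 (0.35) and RPO31 (0.29) of polymerases I and III, and RPB5 (0.32) and RPO21 (0.18) of polymerase II. In the proteasome RPT5 (-0.45) and RPN2 (-0.42) were lowest and RPN11 (0.21) and RPN4 (0.20) highest, and TIF34 led the translation factors at 0.43.

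Silencing proteins and sirtuins had a median of -0.23 over 6 genes, and of -0.08 without HST3, with HST3 and SIR4 (-0.62) lowest and SIR2 (0.06) and HST1 (-0.03) highest. Of 13 mRNA export genes 11 lay below 0, but 7 below and 6 above the median of all genes, with the nuclear pore gene NUP116 at -0.73 and the export receptor MEX67 at -0.59, and NUP159 and YRA1 highest at 0.25 and 0.08. RNA polymerase I and III (-0.01), translation factors (-0.07), the Paf1 complex (-0.04) and the COS family (-0.12) had medians within 0.1 of that of all genes. CDC73 of the Paf1 complex stood at -0.48 and RTF1 at 0.10, and the COS genes ran only from COS5 at -0.27 to COS2 at 0.08.

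The PAU family ran high. Of 22 measured genes 17 lay above 0, against 40.6% of all genes, with a median of 0.17. At least 1.5-fold higher were 6, against 1.46% of all genes. PAU20 was followed by PAU16 (0.98), and PAU23 (-0.51) and PAU17 (-0.24) were lowest. Members of the family are close in sequence, so their spots may not tell them apart. Of 6 AAD genes 5 lay above 0, AAD15 and AAD6 (0.37) highest.

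Values differed with gene length, but not steadily. In the shortest of 10 length groups, up to 483 bases, the median was 0.09, and 5% of genes were at least 1.5-fold higher and 1.74% lower. In the seventh group, from 1416 to 1674 bases, the median was -0.14 with 0.652% higher and 4.35% lower. In the longest group, from 2757 bases, the median was -0.05 with 1.74% higher and 4.13% lower. With the median of genes of similar length taken off, the medians were 0.09 for the small and 0.10 for the large ribosomal subunit, and 0.11 for the PAU family. The same correction moved 32 of 61 list medians, other than the 4 of pheromone targets, histone, G2/M and M/G1 genes, by more than the error set from genes with several features. FIG1, FIG2, AGA1, AGA2, ASG7, MFA1, PRM3, PRM5 and PRM6 stayed above 2-fold after the same correction.

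**Figure D5:**
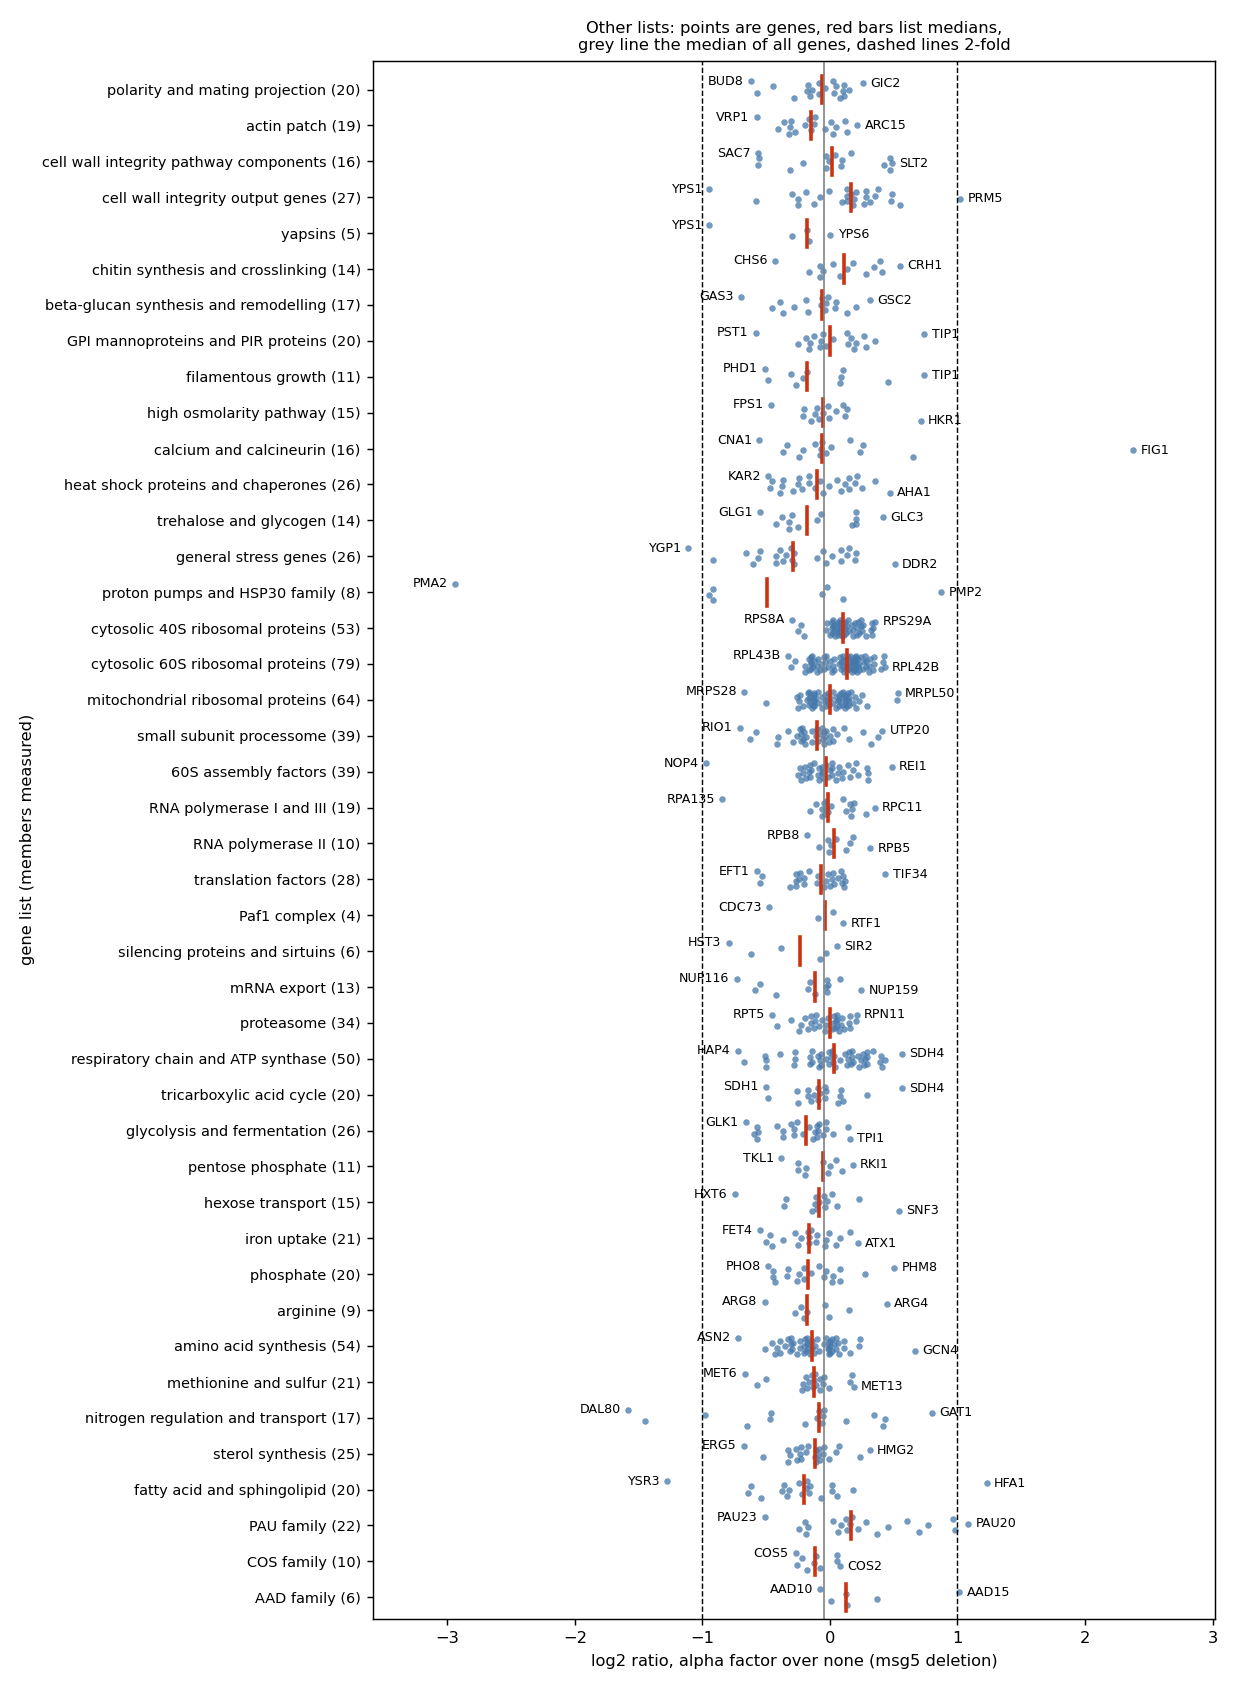
Log2 ratios with alpha factor for the genes of the other lists (points; number measured in brackets), with list medians in red, the median of all genes in grey and dashed lines at 2-fold. Most list medians lie within 0.3 of 0, the proton pump group is lowest at -0.49 (-0.06 without PMA2), and genes such as PMA2, DAL80, FIG1 and HFA1 stand far from their lists.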

How the data were processed

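Per the labels, GenePix Pro 5.0 was used for image analysis. Per the series' design text, the authors condensed 4 arrays of 2 biological samples with swapped dyes to a number for each feature. These deposited numbers were read as log2 ratios. How they were normalized and filtered, and on which genome build, is not given in the sources used here. Taken as powers of 2, 100% of 5310 deletion values, controls included, came out at multiples of 0.001 (tolerance 5.5e-05 in log units; 7.52% by chance). With alpha factor only 7.97% did. Among the 705 alpha factor values below -0.3, 79.1% came out at multiples of 0.0001 against 54.3% by chance. Of 6207 gene features, 5654 matched the R64 table by locus tag, 57 by an older name, and 496 did not. Features of a gene were averaged in Python 3.11.15 with pandas 2.3.3. Genes were counted at 2-fold and 1.5-fold. The 65 lists held 1306 genes, of which 1149 had a value. The rule for named genes took every member of the mating and phosphatase lists, the 2 highest and 2 lowest of other lists (left out where a list is given by its median or most extreme genes), every gene beyond 2-fold and their neighbours; low genes of the arm, neighbouring pairs and a few others (CLB1, CLB3, CLB4, HSP30 and other pump genes, single low growth genes) were named after their values were seen. Members and lists were chosen with earlier results of these data known. Position means the row order of the deposited values, not the place on the arrays, so its correction does not address array location. It was corrected with a running median over 201 features, and length with medians of 10 groups. No promoter or protein sequences were used, so the motif counts and protein identities that had been planned were not made.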

Additional observations from a re-analysis of the deposited data

How the results depend on the processing

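There were no replicate values, so no replicate could be left out, and no paired analysis was possible because each comparison holds 1 condensed value per feature. Read as natural logarithms, 47 genes were at least 2-fold higher and 84 lower, and at 1.5-fold 187 and 410. Read as base 10 logarithms these counts were 319, 671, 709 and 1334. With the sign turned, 12 genes were 2-fold higher and 17 lower, 145 genes were 1.5-fold higher and 67 lower, and the medians became -0.57 for pheromone targets, 0.43 for histone genes, 0.22 for G2/M genes and 0.26 for M/G1 genes; for the other lists and single genes this was not run, since it only turns their sign. Without the right arm of chromosome XI, chosen after seeing the data, 7 genes were 2-fold lower. Adjusted for length, 96 genes were 1.5-fold lower, and the 4 medians were 0.65, -0.52, -0.14 and -0.17. Centring gave pheromone targets 0.62, the position correction M/G1 genes -0.19, and the mean of the members G2/M genes -0.29. Counting features instead of genes gave 20 and 18 at 2-fold and 88 and 162 at 1.5-fold. Of 29 genes beyond 2-fold, 27 stayed so after centring (all but CKI1 and FAT1), 27 after the position correction (all but CKI1 and ADE17) and 22 after the length correction. Without the member farthest from 0, the median of MAPK genes turned to -0.0104, and that of the 2 measured meiotic markers to -0.40; 5 others moved, to -0.06 for the proton pump group, -0.08 for silencing genes, -0.14 for septins, -0.10 for trehalose and glycogen and 0.29 for cell fusion. Of 61 other list medians, 32 moved with length, 23 with position, 11 with centring and 18 with the mean. Centring shifts every list median by the same amount, so the 11 follow from list size alone and show nothing about the lists. Shifts of a median were judged against the standard deviation between features of 1 gene, 0.26, over the square root of the list's size. The number of arrays limits the precision, and signal over background was not used here.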

Other observations

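Features that the R64 table does not name stand outside the gene counts. Of 255 with a value, 3 were at least 2-fold higher and 6 lower. The high ones were YIL080W (1.60), YIL082W (1.40) and YLL037W (1.07). YIL080W and YIL082W also lay high in the deletion over wild type, at 2.16 and 2.97, and YIL082W-A, which the table lists without a symbol, stood at 0.69 with alpha factor. The low ones were YGR160W (-3.38), the lowest feature of the comparison, YDL023C (-1.96), YJR071W (-1.73), YBL100C (-1.68), YGL199C (-1.55) and YGR114C (-1.25).

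Of 3606 pairs of neighbouring genes that both had a value, 11 had both members beyond 1.5-fold, 3 both higher, 6 both lower and 2 opposite. FIG1, the highest gene, is followed on the chromosome by FAT1, among the lowest at -1.03, and CSE2 (1.07) by PRP2 (-0.60). PRM10 (0.65) lies beside YJL107C (0.85), GAT1 (0.80) beside PAU5 (0.96), and APQ13 (0.585) beside SMC3. The low pairs included HHT2 with HHF2, ALO1 (-0.90) with TUB1, FRE7 (-0.72) with GRE2 (-0.82), and BRE2 (-0.72) with PML1 (-0.76).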
